A study of Mus musculus with 6 samples.

Results

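The 10 genes described here belong to the endoplasmic reticulum (ER) stress response and were measured in RNA from sorted mouse rods. They are the chaperones Hspa5 and Hsp90b1, the cochaperones Dnajb9 and Sdf2l1, the disulfide isomerases Pdia4 and Pdia6, the degradation adaptor Herpud1, and the transcription factors Atf4, Xbp1 and Ddit3. They were chosen by symbol among the deposited gene rows that do not lie on patch sequences. This gave 11 gene identifiers for 10 symbols out of 52143 identifiers, since Ddit3 has a second identifier (ENSMUSG00000116429) with 0 counts in all 6 libraries. The libraries fell into a Jun knockdown group and a control group, with 3 libraries in each. Plasmids were electroporated into the retina of living mice at postnatal day 0. In the Jun knockdown group the plasmid carried a short hairpin RNA (shRNA) against Jun, which encodes an AP-1 transcription factor. In the control group it was a pLKO.1 vector with a scrambled hairpin. Both groups also received EGFP driven by the promoter of Nrl, a rod transcription factor gene, and EGFP-positive cells were sorted at postnatal day 10, so both groups hold electroporated, EGFP-expressing cells. A single hairpin clone was used. The labels name neither the animals nor the litters, so the p-values cover only the spread from library to library, which may be technical. The study's question for this comparison is the role of Jun in early differentiation of rods.

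The ER folds secreted and membrane proteins, among them rhodopsin, which rods make in large amounts. When unfolded proteins accumulate, the ER membrane sensors PERK (gene Eif2ak3), IRE1 (Ern1) and ATF6 start the unfolded protein response. ATF6 and the spliced form of XBP1 switch on genes for chaperones, disulfide isomerases and the degradation of misfolded proteins. PERK phosphorylates eIF2 alpha, which lowers general translation while favouring that of ATF4, and ATF4 raises the expression of Ddit3, which encodes the pro-apoptotic factor CHOP. The hairpin's target and the cell type were examined first. Jun stood at 1.84, 17.6 and 19.3 CPM (counts on library sizes scaled by TMM, the trimmed mean of M values) in the libraries labelled Jun knockdown, against 6.47, 5.85 and 7.16 CPM in controls. Its log2 fold change was 0.99 with an SE of 1.44 (adjusted p = 0.764 in edgeR's quasi-likelihood test), so no reduction was detected. Replicate 1 of the libraries labelled Jun knockdown lay below all controls and replicates 2 and 3 above them. Every direction given here is that of labelled libraries.

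Depth and cell markers also differed between the groups. The libraries labelled Jun knockdown held 13211300 to 13998400 counts and the controls 32150100 to 105801000, and depth and group cannot be told apart. Spearman correlations between libraries were 0.613 to 0.757 inside a group and 0.508 to 0.559 across groups. The 16 rod markers summed to 39747 to 56004 CPM in the libraries labelled Jun knockdown, against 148576 to 159156 CPM in controls. Of the 16, 10 were called lower and 0 higher (1.35% of all tested genes were called lower), and 3 had a positive log2 fold change, 1 of them at an unadjusted p under 0.05. Microglial markers summed to 15.3 to 49.2 CPM in the libraries labelled Jun knockdown, against 957 to 1294 CPM in controls (4 of 13 tested called lower, with Laptm5 at 0 in all 3 libraries labelled Jun knockdown). Vascular and blood markers summed to 21.4 to 70.3 CPM in the libraries labelled Jun knockdown, against 210 to 350 CPM in controls (3 of 7 tested called lower, with Esam and Hba-a1 at 0 in the libraries labelled Jun knockdown and Cdh5, Kcnj8 and Tek at 0 in controls). Müller glia markers summed to 729 to 774 CPM in the libraries labelled Jun knockdown, against 3307 to 3766 CPM in controls. Of these 15, edgeR called 0, and 5 were lower at an unadjusted p under 0.05, beside 10.7% of all tested genes. Pigment epithelium markers summed to 82.7 to 199 CPM in the libraries labelled Jun knockdown, against 269 to 314 CPM in controls. Of 5 tested, 1 was called lower, with Best1 and Mlana at 0 in the libraries labelled Jun knockdown and Pmel at 0 in controls. Markers of plasma and B cells, which are rich in ER, summed to 157 to 303 CPM against 32.3 to 415 CPM in controls, with 0 of 2 tested called. Bipolar cell markers summed to 1326 to 2206 CPM in the libraries labelled Jun knockdown, against 1563 to 2148 CPM in controls, with 1 of 12 called lower and 1 higher, and amacrine and ganglion cell markers to 16.6 to 77.3 CPM against 16.4 to 92.6 CPM in controls, with 0 of 6 tested called by edgeR and 1 lower at an unadjusted p under 0.05. Cone markers summed to 2894 to 3485 CPM in the libraries labelled Jun knockdown, against 3562 to 7115 CPM in controls, with 1 of 10 called lower. Retained-intron transcripts took 7.84% to 9.63% of the transcript counts of protein-coding genes in the libraries labelled Jun knockdown, against 2.78% to 3.56% in controls. The part of depth, of these cell types or of retained introns in the ER stress gene results was not tested. In bulk RNA, fewer cells of a type and less RNA per cell cannot be told apart.

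Promoters are shown first because the ER stress genes are known to be switched on through short elements near their start sites. The window was 250 bases before to 50 bases after each RefSeq start site (GRCm38.p6), and all 10 genes had an entry. The ER stress element (ERSE), bound by NF-Y and ATF6, was searched on both strands as CCAAT and CCACG with 9 bases of any kind between them. It occurred in 3 of the 10 promoters, those of Hspa5, Hsp90b1 and Pdia6, and in 0.119% of all 32851 RefSeq promoters of the same length. The shorter ERSE-II, ATTGG and CCACG with 1 base between them, occurred in the Herpud1 promoter and in 0.0365% of all promoters. Both are already known as patterns of ER stress genes, so these matches are no independent finding, and enrichment was not tested. The matches are set side by side here, each on the strand of the motif, with the fixed letters in capitals.
Hspa5 ERSE: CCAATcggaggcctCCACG
Hsp90b1 distal ERSE: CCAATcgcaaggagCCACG
Hsp90b1 proximal ERSE, minus strand of the gene: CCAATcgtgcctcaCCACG
Pdia6 ERSE: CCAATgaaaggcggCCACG
Herpud1 ERSE-II: ATTGGgCCACG
In Hspa5 the element lay at -65 to -47 from the start site. In Hsp90b1 the matches lay at -212 to -194 and at -107 to -89, in Pdia6 at -98 to -80, and in Herpud1 at -52 to -42. The deposited coordinates of Hspa5 begin at 34771970, upstream of its RefSeq start, so its element lies inside that interval. Every ERSE match contains a CCAAT box by construction, and so does ERSE-II on its other strand. A CCAAT box alone occurred in 9 of the 10 promoters, all but that of Xbp1, and in 37.4% of all promoters.

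The core of the XBP1 site, TGACGTGG, occurred in 0 of the 10 promoters and in 0.676% of all. The ATF4 site called CARE, searched as TGATGNAA, occurred in Herpud1 alone of the 10 (-112 to -105, minus strand) and in 3.97% of all promoters. The AP-1 site TGANTCA, the class of site that Jun dimers bind, occurred in Hspa5 (-182 to -176, overlapping a CCAAT box by its first base) and Ddit3 (-242 to -236), and in 7.81% of all promoters. A match is a description of letters and not of binding, which was not measured here. The stretches upstream of the start site are given for the member whose RNA was called lower (Hspa5), for the member with a pair of ERSE matches (Hsp90b1), for the promoter with ERSE-II and CARE (Herpud1) and for the other promoter with an AP-1 match (Ddit3), 5' to 3' on the gene's strand, with matches other than plain CCAAT boxes in capitals.
Hspa5, chr2:34771840-34772089, plus strand: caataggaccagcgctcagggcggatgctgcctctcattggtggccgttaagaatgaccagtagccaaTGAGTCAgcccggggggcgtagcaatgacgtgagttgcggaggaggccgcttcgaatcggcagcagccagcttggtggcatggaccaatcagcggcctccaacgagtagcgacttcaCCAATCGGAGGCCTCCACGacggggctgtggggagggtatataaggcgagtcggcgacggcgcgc
Hsp90b1, chr10:86705445-86705694, minus strand: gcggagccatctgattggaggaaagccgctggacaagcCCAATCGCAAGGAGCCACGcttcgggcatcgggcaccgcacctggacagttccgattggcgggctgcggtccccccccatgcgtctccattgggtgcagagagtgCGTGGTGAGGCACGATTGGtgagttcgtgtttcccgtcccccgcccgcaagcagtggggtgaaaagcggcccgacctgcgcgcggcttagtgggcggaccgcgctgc
Herpud1, chr8:94386179-94386428, plus strand: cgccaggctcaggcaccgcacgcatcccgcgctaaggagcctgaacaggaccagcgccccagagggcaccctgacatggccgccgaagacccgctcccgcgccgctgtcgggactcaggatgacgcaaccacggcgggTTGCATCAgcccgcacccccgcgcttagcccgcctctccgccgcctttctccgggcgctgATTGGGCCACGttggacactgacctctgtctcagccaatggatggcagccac
Ddit3, chr10:127290543-127290792, plus strand: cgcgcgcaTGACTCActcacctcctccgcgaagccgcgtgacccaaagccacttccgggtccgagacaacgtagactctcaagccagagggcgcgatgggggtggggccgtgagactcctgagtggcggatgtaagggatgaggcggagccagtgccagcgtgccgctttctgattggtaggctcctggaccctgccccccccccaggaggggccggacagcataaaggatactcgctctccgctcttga

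**Figure D1:**
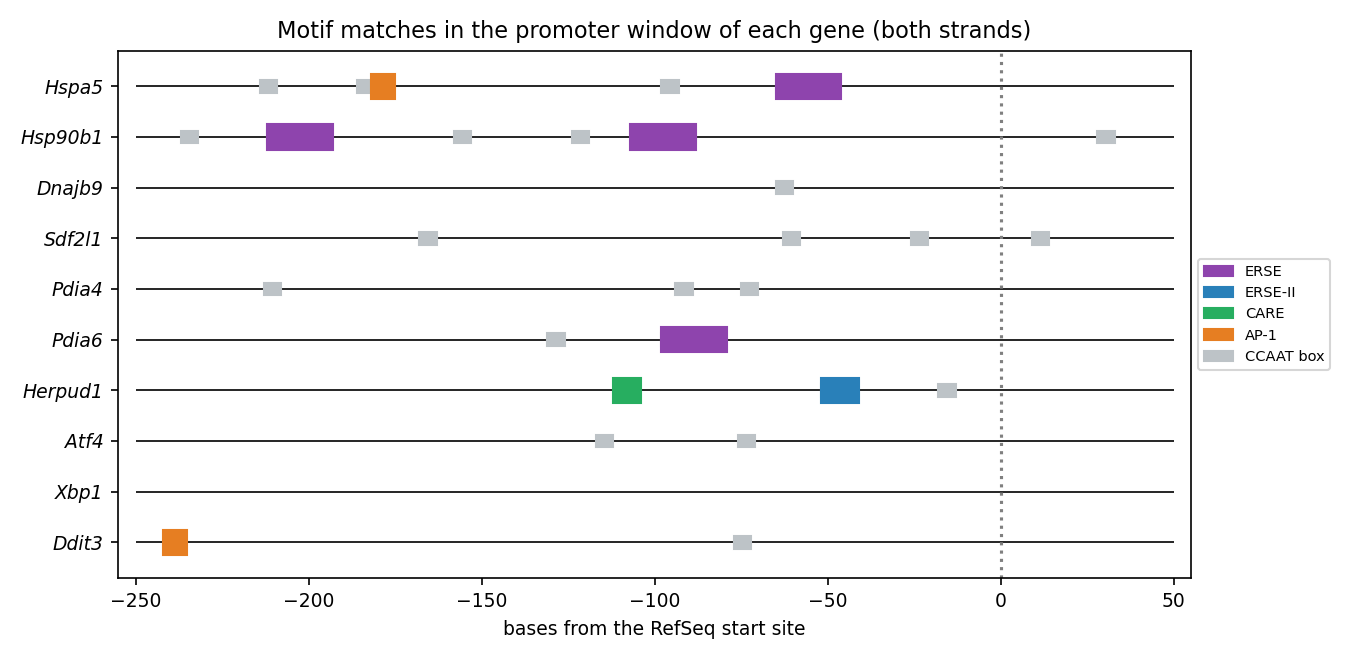
Motif matches in the promoter of each of the 10 genes, by distance in bases from the RefSeq start site (dotted line). ERSE matches stand in Hspa5, Hsp90b1 and Pdia6, ERSE-II and CARE in Herpud1, AP-1 in Hspa5 and Ddit3, and no match in Xbp1.

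Hspa5 was the only one of the 10 genes whose RNA passed the test, and it fell in the libraries labelled Jun knockdown. All 9 tested genes had a negative log2 fold change, and 8 of them had no overlap between the groups. In the test over all genes, 1.35% of 12815 genes were called lower and 0.32% higher. At an unadjusted p under 0.05, 7 of the 9 were lower and 0 higher, against 10.7% of all tested genes lower and 6.13% higher. Groups that do not overlap in the lower direction made up 15.7% of all tested genes, and 52.1% of all had a negative log2 fold change. The median log2 fold change of the 9 was -3.85, beside -0.12 over all tested genes. These counts leave out Sdf2l1, which did not pass the filter on low counts, and include Dnajb9, which passed it through the controls alone. Without the filter 10 genes were tested, all 10 were negative and their median was -4.09. The summed level of the 10 was 642 to 779 CPM in the libraries labelled Jun knockdown, against 2437 to 3333 CPM in controls.

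**Figure D2:**
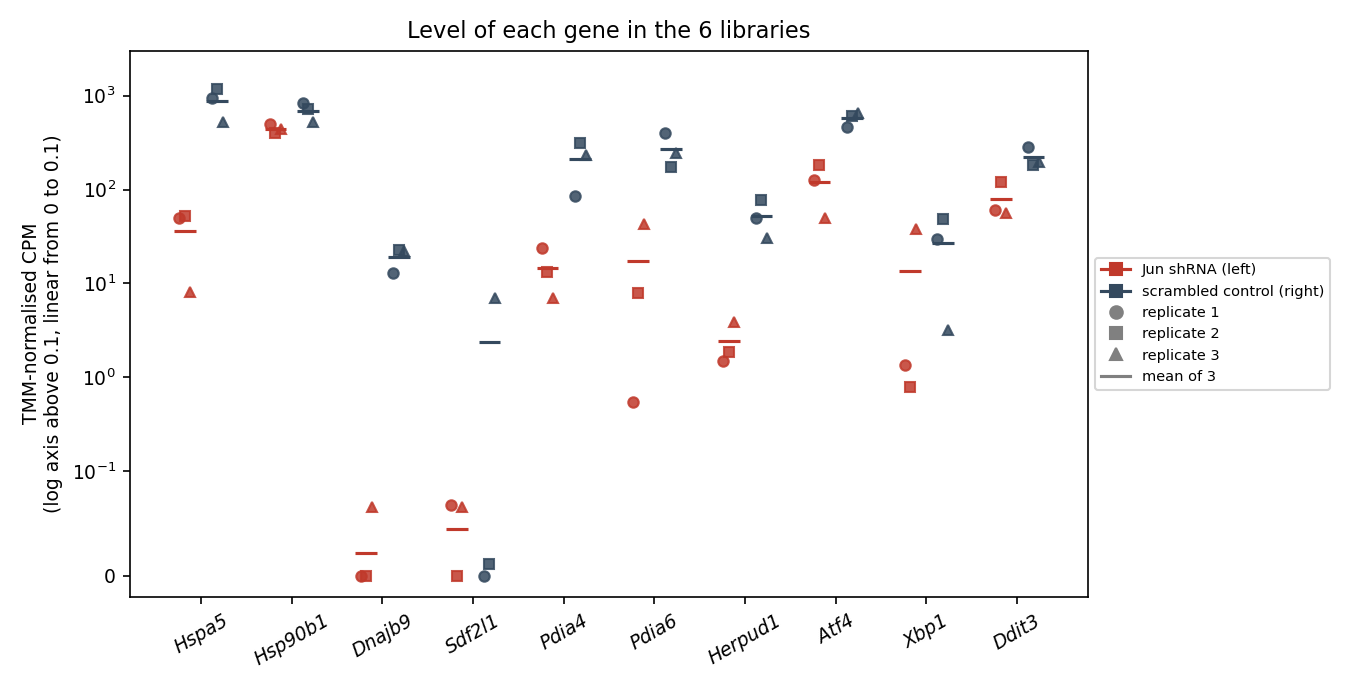
TMM-normalised CPM of each gene in each library, on an axis that is logarithmic above 0.1 and linear below, with Jun shRNA libraries (red) left of scrambled controls (blue) and bars at the means of 3. The groups are apart for 8 genes, overlap for Xbp1 and Sdf2l1, and are closest for Hsp90b1 among those apart.

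Hspa5 (ENSMUSG00000026864, chromosome 2, 34771970 to 34777547, plus strand, GRCm38) encodes BiP, the HSP70 chaperone of the ER lumen, which also holds the stress sensors inactive. Its level was 49.6, 52.1 and 8.05 CPM in the libraries labelled Jun knockdown, against 948, 1187 and 518 CPM in controls. Every library labelled Jun knockdown lay below every control, and replicate 3 was the lowest of its group in both. The mean was 36.6 ± 24.7 CPM in the libraries labelled Jun knockdown and 885 ± 339 CPM in controls (SD, n = 3 each), 24.2 times higher in controls. The log2 fold change was -4.60 with an SE of 0.76 (adjusted p = 0.0242, edgeR's quasi-likelihood test with Benjamini-Hochberg adjustment over all tested genes). With counts thinned to the smallest library total it was -4.30 (adjusted p = 0.0338). The call held without replicate 3 of the libraries labelled Jun knockdown (adjusted p = 0.0202) and was lost without replicate 1 (0.0666) or 2 (0.0609) of that group and without control 1 (0.118), 2 (0.0976) or 3 (0.0719). It was also lost with limma-voom (log2 fold change -5.17, adjusted p = 0.105), and over all 16 alternatives the adjusted p ran from 3.19e-12, with no low-count filter, to 0.118.

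Hsp90b1 (ENSMUSG00000020048, chromosome 10, 86690209 to 86705509, minus strand) encodes GRP94, the HSP90 of the ER lumen. Its level was 493, 401 and 435 CPM in the libraries labelled Jun knockdown, against 833, 720 and 523 CPM in controls. The groups did not overlap, but the highest library labelled Jun knockdown and the lowest control were close. The log2 fold change was -0.64 with an SE of 0.34 (adjusted p = 0.376), the smallest in size among the 9 tested. It was -0.14 when libraries were scaled by their totals alone, where the median of all genes stood at 0.38, a shift of 0.501 from the TMM value. The per-length scale (TPM) is transcript counts per kilobase of transcript, scaled to the same sum in each library. On it Hsp90b1 overlapped between groups, with 270, 273 and 227 TPM in the libraries labelled Jun knockdown and 364, 353 and 222 in controls. Hspa5 had 29.2, 38.1 and 4.32 TPM in the libraries labelled Jun knockdown, against 444, 626 and 210 in controls.

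The balance between these chaperones is given next, as a description. The per-length ratio of Hspa5 to Hsp90b1 was 0.108, 0.139 and 0.0190 in the libraries labelled Jun knockdown, against 1.22, 1.77 and 0.947 in controls, with no overlap. Hsp90b1 took 51.2%, 34.3% and 52.6% of the summed per-length level of the 10 genes in the libraries labelled Jun knockdown, against 20.01%, 16.5% and 15.3% in controls. By median per-length level the order in the libraries labelled Jun knockdown was Hsp90b1, Atf4, Ddit3, Hspa5, Pdia4, Pdia6, Herpud1, Xbp1, Sdf2l1 and Dnajb9. In controls it was Atf4, Hspa5, Hsp90b1, Ddit3, Pdia6, Pdia4, Herpud1, Xbp1, Dnajb9 and Sdf2l1. In the libraries labelled Jun knockdown the ranges of neighbours were apart between Hsp90b1 and Atf4 (227 to 273 against 41.2 to 201 TPM), between Ddit3 and Hspa5, and between Xbp1 and Sdf2l1. In controls they were apart only between Ddit3 (264 to 354 TPM) and Pdia6 (115 to 232), and all other neighbours overlapped.

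Dnajb9 (ENSMUSG00000014905, chromosome 12, 44205559 to 44210326, minus strand) encodes ERdj4, a J-domain cochaperone of BiP. It had 0, 0 and 1 counts in the libraries labelled Jun knockdown, against 470, 2062 and 609 counts in controls, which is 0, 0 and 0.0654 CPM against 12.9, 22.9 and 21.9 CPM. The gene was at or next to 0 in every library labelled Jun knockdown and present in every control. The summed counts over summed TMM-scaled library sizes were 971 times higher in controls (95% Clopper-Pearson interval 174 to 38370, counting error only). edgeR's fitted log2 fold change of -9.58 (SE 2.20, adjusted p = 0.0632) depends on the prior count. DESeq2 called it (adjusted p = 9.26e-07), as did limma-voom (0.0140), and over 16 alternatives its adjusted p ranged up to 0.184. Dnajb9 passed the low-count filter through the controls alone. With 1 count in all in the libraries labelled Jun knockdown, the spread of that group could hardly be estimated. In limma-voom, log values at 0 counts are set by an offset. These calls therefore give no further support.

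Sdf2l1 (ENSMUSG00000022769, chromosome 16, 17130138 to 17132383, minus strand) encodes a partner of the ER J-domain proteins. It had 1, 0 and 1 counts in the libraries labelled Jun knockdown, against 0, 1 and 196 counts in controls, and was not tested. Its RNA was near 0 in 5 of 6 libraries. The control to knockdown ratio of 30.5 (95% Clopper-Pearson interval 8.32 to 253, counting error only) rests on control 3.

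For both disulfide isomerases the libraries labelled Jun knockdown lay below all controls, but neither gene passed the test. Pdia4 (ENSMUSG00000025823, chromosome 6, 47796141 to 47813430, minus strand), known as ERp72, stood at 23.8, 13.1 and 7.07 CPM in the libraries labelled Jun knockdown, against 85.5, 316 and 234 CPM in controls. Its log2 fold change was -3.85 with an SE of 0.84 (adjusted p = 0.0569). Pdia6 (ENSMUSG00000020571, chromosome 12, 17266545 to 17284770, plus strand) encodes an isomerase that binds BiP and tempers IRE1 and PERK signalling. It stood at 0.545, 7.95 and 43.0 CPM in the libraries labelled Jun knockdown, against 399, 175 and 243 CPM in controls. The spread within the knockdown-labelled group was wide, with replicate 3 highest, the reverse of Pdia4 and Hspa5. The log2 fold change of Pdia6 was -3.99 with an SE of 1.29 (adjusted p = 0.164), and -6.01 without replicate 3 of the libraries labelled Jun knockdown.

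Herpud1 (ENSMUSG00000031770, chromosome 8, 94386438 to 94395377, plus strand) encodes a membrane protein that organises the ubiquitin ligase complex of ER-associated degradation. Its gene level was 1.50, 1.86 and 3.93 CPM in the libraries labelled Jun knockdown, against 50.3, 77.2 and 30.3 CPM in controls. All libraries labelled Jun knockdown lay far below all controls, and the log2 fold change was -4.44 with an SE of 1.28 (adjusted p = 0.119). DESeq2 called it (adjusted p = 0.00029), and the adjusted p ranged up to 0.296 over the 16 alternatives. Gene counts in the deposited table are not sums of transcript counts. Summed over each group's libraries, they differ more for Herpud1 than for the other 9 genes. Its transcripts summed to 11, 18 and 31 counts in the libraries labelled Jun knockdown, against 2393, 8906 and 1081 counts in controls. Summed over libraries, the gene count was 1.92 times the transcript sum in the libraries labelled Jun knockdown and 0.778 times in controls. For the 9 other genes this ratio of group sums lay between 0.838 and 1.03. Single libraries can differ more. In replicate 3 of the libraries labelled Jun knockdown, Pdia4 had a gene count of 108 but a transcript sum of 37.

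Among the transcription factors the groups were apart for Atf4 and Ddit3 and overlapped for Xbp1. Atf4 (ENSMUSG00000042406, chromosome 15, 80255184 to 80257541, plus strand) encodes the main effector of the integrated stress response. It stood at 126, 183 and 49.4 CPM in the libraries labelled Jun knockdown, against 462, 605 and 659 CPM in controls, with no overlap. The log2 fold change was -2.27 with an SE of 0.54 (adjusted p = 0.0691). Since ATF4 is known to be controlled mainly in translation, its RNA level does not give the level of the protein.

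Xbp1 (ENSMUSG00000020484, chromosome 11, 5520659 to 5525893, plus strand) stood at 1.36, 0.790 and 38.1 CPM in the libraries labelled Jun knockdown, against 29.8, 48.3 and 3.17 CPM in controls. The groups overlapped because replicate 3 went the other way in each group, high in the libraries labelled Jun knockdown and low in controls. The log2 fold change was -1.02 with an SE of 1.74 (adjusted p = 0.802), and -4.68 (adjusted p = 0.340) without replicate 3 of the libraries labelled Jun knockdown. Without control 3 it was -1.57, and without control 2 it was -0.29. IRE1 removes a 26-base intron from the Xbp1 messenger, here in capitals after the 6 bases that precede it in the annotated transcript (chromosome 11, GENCODE vM21).
Xbp1 intron: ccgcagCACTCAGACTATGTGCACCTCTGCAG
This stretch was found in 3 of 4 annotated Xbp1 transcripts, and the joined sequence left after splicing in 0 of 4. The deposited transcript counts therefore hold no separate value for spliced Xbp1, and IRE1 activity was not measured.

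Ddit3 (ENSMUSG00000025408, chromosome 10, 127290774 to 127296288, plus strand) stood at 60.8, 119 and 56.6 CPM in the libraries labelled Jun knockdown, against 286, 181 and 198 CPM in controls. The groups did not overlap, and the log2 fold change was -1.49 with an SE of 0.58 (adjusted p = 0.244). On the per-length scale they met, with 99.5, 265 and 94.4 TPM in the libraries labelled Jun knockdown and 354, 270 and 264 in controls. Ddit3 exons overlap those of Mars on the opposite strand (2513 counts in the libraries labelled Jun knockdown and 19339 in controls), and the protocols state no strand-marking step, so reads from the shared stretch cannot be told apart. They also overlap Gm4189 on that strand (461 counts in the libraries labelled Jun knockdown and 403 in controls). Hsp90b1 likewise overlaps 1810014B01Rik on the opposite strand (59 counts in the libraries labelled Jun knockdown and 1586 in controls), as well as Gm15344 on its own strand (0 counts in the libraries labelled Jun knockdown and 114 in controls), and Pdia6 overlaps Atp6v1c2 (2 counts in the libraries labelled Jun knockdown and 1 in controls).

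Within groups the tested genes varied in different ways. Over the 6 libraries, with each group's mean removed from log2 CPM, Pearson's r ranged from -0.864 for Atf4 and Xbp1 to 0.937 for Xbp1 and Herpud1. Hspa5 and Atf4 had an r of 0.818, Hspa5 and Dnajb9 -0.786, and Pdia4 and Pdia6 -0.783. These values describe 6 libraries and carry no test. Dnajb9 stood at 0, 0 and 0.0654 CPM in the libraries labelled Jun knockdown, so its variation comes almost wholly from the 3 controls. The 5 other genes with levels most like that of Hspa5, among 3720 with a mean of at least 50 CPM, were Pgm2 (r = 0.9996), Gpx1 (0.9943), Smarcb1 (0.9942), Eno1 (0.9925) and Prmt5 (0.9921). Pgm2 is a phosphoglucomutase, Gpx1 a glutathione peroxidase, Smarcb1 a chromatin remodeller subunit, Eno1 an enolase and Prmt5 an arginine methyltransferase. An r over 0.95 was reached by 97 of the 3720. These r include the difference between the groups. With each group's mean removed the r of the 5 genes were 0.943 to 0.998, and the part of depth was not tested. Pgm2 stood at 22.5, 22.2 and 8.31 CPM in the libraries labelled Jun knockdown, against 119, 125 and 83.4 CPM in controls, and, like Hspa5, lowest in replicate 3 of the libraries labelled Jun knockdown.

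At the transcript level the deposited table held 38 transcripts of the 10 genes, of which 14 were tested. edgeR called 0 of them lower and 0 higher, while 0.604% of 20706 tested transcripts were called lower and 0.058% higher. At an unadjusted p under 0.05, 9 of the 14 were lower and 1 higher, beside 10.8% of all tested transcripts lower and 4.79% higher. Of these, Dnajb9-201 and Herpud1-205 passed the low-count filter through the controls alone and Herpud1-206, the higher one, through the libraries labelled Jun knockdown alone. For both coding transcripts of Hspa5 the libraries labelled Jun knockdown lay below all controls. The shorter (ENSMUST00000100171, 2613 bases) stood at 49.4, 54.3 and 6.93 CPM in the libraries labelled Jun knockdown, against 1084, 1432 and 362 CPM in controls, a log2 fold change of -4.70 with an SE of 0.92 (adjusted p = 0.0736). The longer, Hspa5-201 (3672 bases), stood at 0.836, 0.379 and 0.547 CPM in the libraries labelled Jun knockdown, against 52.7, 112 and 47.7 CPM in controls, a log2 fold change of -6.90 with an SE of 1.35 (adjusted p = 0.0751). Its share of Hspa5 transcript counts was 1.61%, 0.645% and 6.91% in the libraries labelled Jun knockdown, against 4.64%, 7.23% and 11.04% in controls, so the shares overlapped.

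Herpud1 was counted on different transcripts in the 2 groups. Herpud1-205 (1952 bases, protein-coding) had 2, 3 and 0 counts in the libraries labelled Jun knockdown, against 2393, 8905 and 1078 counts in controls (fitted log2 fold change -9.61, adjusted p = 0.0697). Herpud1-206, an annotated coding transcript of 823 bases, had 7, 15 and 26 counts in the libraries labelled Jun knockdown and 0 in every control. It took 65.1%, 83.0% and 84.9% of the gene's transcript counts in the libraries labelled Jun knockdown, a share that rests on 11 to 31 counts per library. The remaining Herpud1 counts in the libraries labelled Jun knockdown were spread over Herpud1-201, Herpud1-203, Herpud1-205 and an annotated nonsense-mediated decay transcript.

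The main transcripts of the other genes had fold changes of the same sign as their genes, and none passed the test. Adjusted p was 0.0921 for Atf4-201 (log2 fold change -2.47) and Dnajb9-201, 0.0981 for Pdia4-201 (-4.26), 0.189 for Pdia6-201 (-4.20), 0.247 for Hsp90b1-201 (-0.87) and Ddit3-201 (-1.69), and 0.817 for Xbp1-201 (-1.18). Ddit3-203 took 23.6% of Ddit3 transcript counts in replicate 1 of the libraries labelled Jun knockdown and at most 1.41% in the 5 other libraries. The retained-intron transcript of Hsp90b1 with 3222 bases (ENSMUST00000129178) stood at 2.38, 0.596 and 15.7 CPM in the libraries labelled Jun knockdown, against 10.1, 4.997 and 0.457 CPM in controls, with full overlap. Retained-intron transcripts held 0.330%, 1.28% and 2.53% of the 10 genes' transcript counts in the libraries labelled Jun knockdown, against 0.314%, 0.353% and 1.03% in controls, which overlapped.

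**Figure D3:**
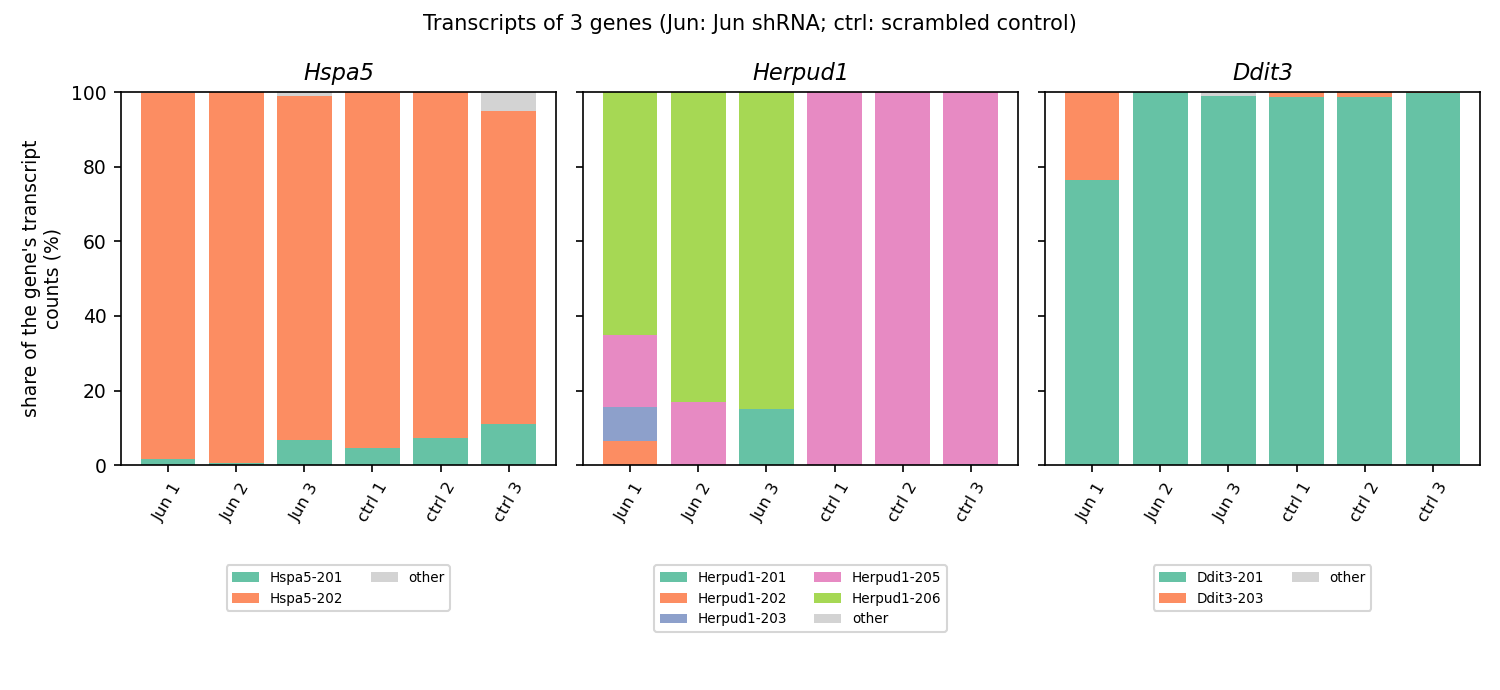
Share of each gene's transcript counts (percent) taken by its annotated transcripts in each library, for Hspa5, Herpud1 and Ddit3, with Jun shRNA libraries left of controls. Herpud1-206 holds 65.1% to 84.9% in the Jun shRNA libraries and none in controls, where Herpud1-205 holds nearly all.

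Other genes of the pathway were taken by list. Of 33 further ER chaperones and folding enzymes, 29 were tested, 3 fell in the libraries labelled Jun knockdown and 0 rose, 24 had a negative log2 fold change and the median was -1.13. Over all tested genes 1.35% were called lower and 52.1% were negative. The 3 were disulfide isomerases. Pdia3, the ERp57 partner of calnexin and calreticulin, stood at 13.0, 3.78 and 7.79 CPM in the libraries labelled Jun knockdown, against 184, 218 and 98.3 CPM in controls, a log2 fold change of -4.35 with an SE of 0.87 (adjusted p = 0.0468). P4hb, the classical protein disulfide isomerase, stood at 29.5, 55.9 and 12.2 CPM in the libraries labelled Jun knockdown, against 368, 287 and 333 CPM in controls, a log2 fold change of -3.34 with an SE of 0.68 (adjusted p = 0.0490). Tmx1, a membrane-bound thioredoxin-like isomerase, stood at 221, 124 and 181 CPM in the libraries labelled Jun knockdown, against 1069, 963 and 471 CPM in controls, a log2 fold change of -2.25 with an SE of 0.45 (adjusted p = 0.0467). None of the groups overlapped for these 3 genes. Each call was lost without any 1 of the 6 libraries, with adjusted p of 0.0751 to 0.186 for Pdia3, 0.0580 to 0.168 for P4hb and 0.0719 to 0.167 for Tmx1. None of the 3 was called with median of ratios, upper quartile or library total scaling, thinning, limma-voom or the replicate block (adjusted p 0.0577 to 0.145), nor Tmx1 with DESeq2 (0.0946). Selenof, a selenoprotein that binds the glucosyltransferase UGGT, came next (-1.80, adjusted p = 0.0696).

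Of 27 genes for translocation into the ER and N-glycosylation, all 27 were tested, 1 fell and 0 rose, beside 1.35% of all tested genes called lower, and the median log2 fold change was -0.65. Srprb, a subunit of the signal recognition particle receptor, stood at 14.3, 6.20 and 8.70 CPM in the libraries labelled Jun knockdown, against 238, 338 and 73.1 CPM in controls, a log2 fold change of -4.47 with an SE of 0.86 (adjusted p = 0.0431). The call was lost without any 1 of the 6 libraries (adjusted p 0.0681 to 0.186), and with median of ratios (0.0507), upper quartile (0.0593) or library total scaling (0.0621), thinning (0.0558), limma-voom (0.152) and the replicate block (0.136). Srp68 (-5.65, adjusted p = 0.0519) and Srp54a (-2.83, adjusted p = 0.144), proteins of the signal recognition particle, did not pass. Sec62, a translocon partner that also serves as a receptor for ER autophagy, had higher values in the libraries labelled Jun knockdown, at 648, 547 and 491 CPM against 205, 224 and 269 CPM in controls, without overlap (1.27, SE 0.37, adjusted p = 0.121).

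Among the stress sensors and their activating proteases, 9 of 10 were tested and edgeR called 0 lower and 0 higher. With an unadjusted p under 0.05 there were 0, beside 10.7% of all tested genes lower and 6.13% higher. The median log2 fold change was -0.52. Ern1, which encodes IRE1, was not tested. Atf6 stood at 45.1, 27.5 and 0.720 CPM in the libraries labelled Jun knockdown, against 38.1, 66.0 and 198 CPM in controls, which overlapped (-2.04, adjusted p = 0.469). Its relative Atf6b had -4.30 (adjusted p = 0.325), Mbtps2, the site-2 protease that releases ATF6, 2.70 (adjusted p = 0.445), and Eif2ak1, the haem-regulated eIF2 alpha kinase, 2.54 (adjusted p = 0.317). DESeq2 called 1 sensor higher, beside 855 of the 15502 genes to which it gave an adjusted p.

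In ER-associated degradation, 22 of 23 genes were tested, and edgeR called 0 lower and 0 higher. At an unadjusted p under 0.05, 3 were lower, beside 10.7% of all tested genes, and the median log2 fold change was -0.58. DESeq2 called 2 lower, beside 1144 of the 15502 genes to which it gave an adjusted p. The 4 smallest p-values belonged to Aup1, which recruits the conjugating enzyme UBE2G2 (-6.94, adjusted p = 0.0578), Ubxn4 (-1.64, adjusted p = 0.254), Ube2g2 itself (-5.71, adjusted p = 0.287) and Nploc4, a cofactor of the segregase p97 (4.30, adjusted p = 0.310). Among targets of the integrated stress response, 19 of 28 were tested, and edgeR called 0 lower and 0 higher. Of these, 6 were lower at an unadjusted p under 0.05, beside the same 10.7% of all tested genes, and the median was -1.41. DESeq2 called 4 lower and 1 higher, beside 1144 lower and 855 higher of the 15502. Ppp1r15a, which encodes GADD34, the phosphatase subunit that reverses eIF2 alpha phosphorylation, stood at 0.272, 0 and 0.0654 CPM in the libraries labelled Jun knockdown, against 24.3, 23.5 and 19.0 CPM in controls. It passed the low-count filter through the controls alone, and its adjusted p was 0.0961. Nars (asparaginyl-tRNA synthetase) had -3.65 (adjusted p = 0.0602), Shmt2 (mitochondrial serine hydroxymethyltransferase) -4.98 (adjusted p = 0.146) and Asns (asparagine synthetase) -4.30 (adjusted p = 0.202).

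**Figure D4:**
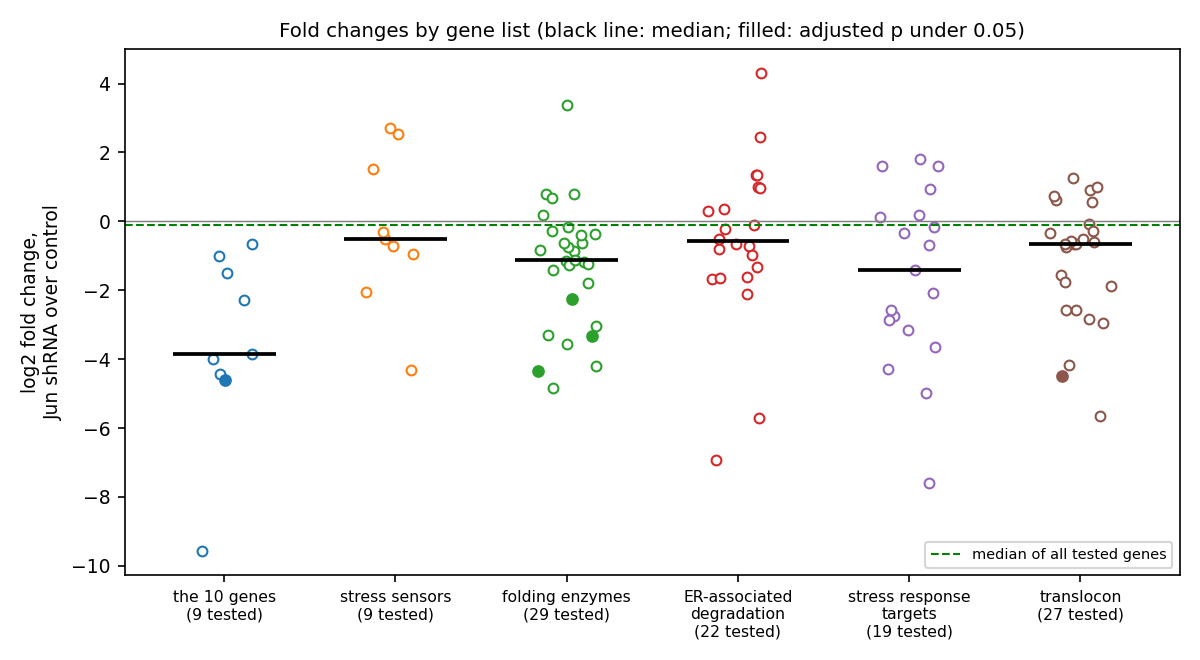
Log2 fold change, Jun shRNA over control, of each tested gene by list, with the list median as a black line and the median of all tested genes (-0.12) as a dashed line. Filled points passed the test: Hspa5, 3 folding enzymes and 1 translocon gene, all negative.

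**Figure D5:**
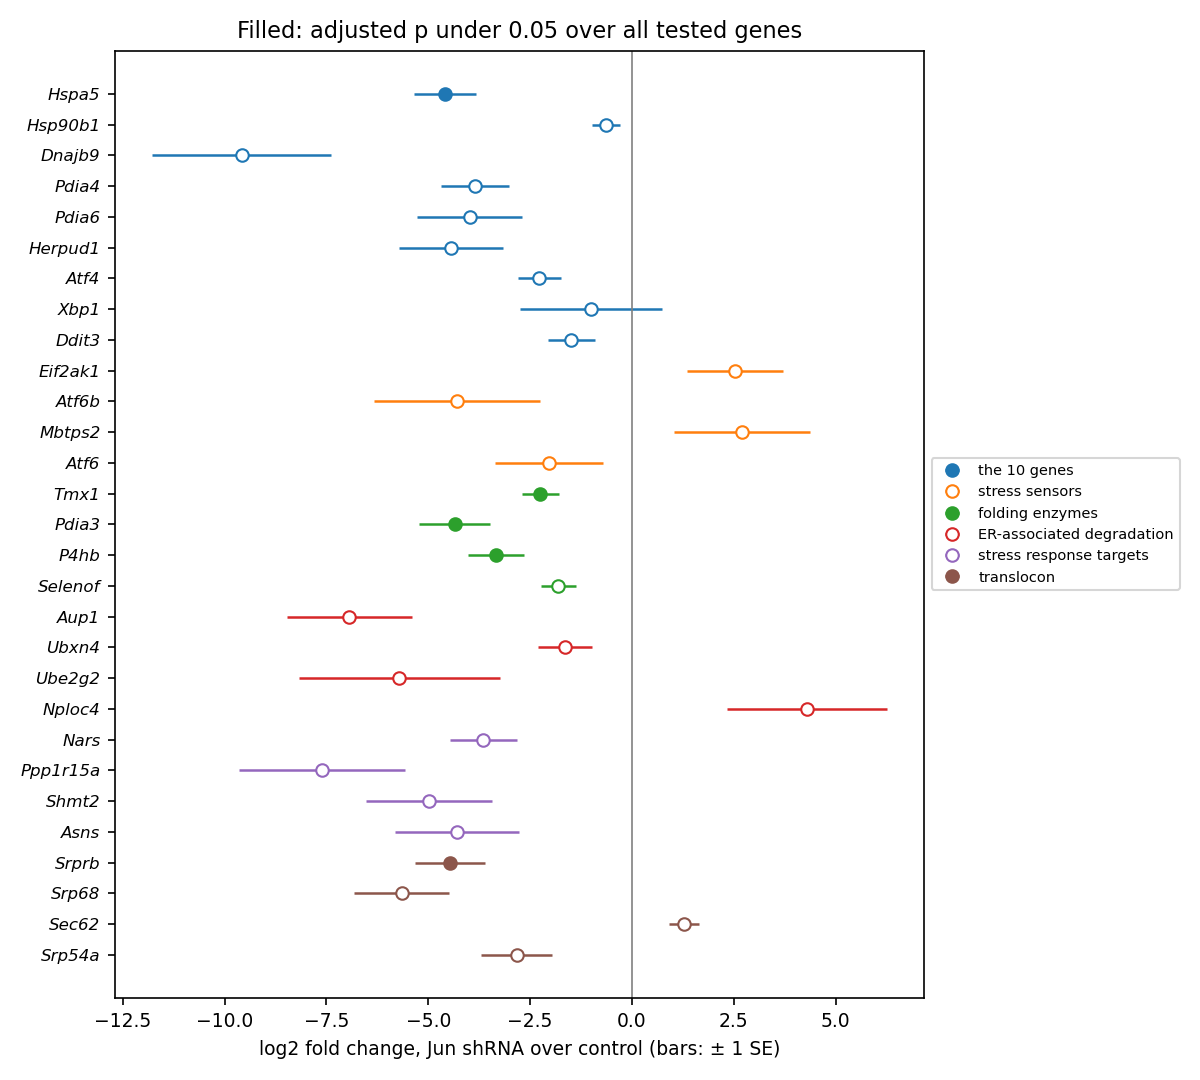
Log2 fold change, Jun shRNA over control, with bars of 1 SE, for the 9 tested genes and the named genes of each list. Hsp90b1 (-0.64) has the value nearest 0 of the 9, and Dnajb9 (-9.58) the farthest.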

How the data were processed

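RNA from 6 libraries of sorted mouse rods was measured with SMART-seq v4 cDNA and Nextera XT libraries, per the labels' protocols. The authors deposited estimated counts per gene and per transcript, and a normalised gene table whose columns sum to 1250540 to 2385210, handled as a signal on the authors' own scale. Per the submitters' processing notes the tools were Trimmomatic 0.39, kallisto 0.44.0 and edgeR 3.28.1, in an order that is not stated. The genome build: not given in the sources used here. Of 52143 identifiers, 51250 were in GENCODE vM21, 98.2% of them with the same coordinates, and 11 of 11 identifiers of the described genes matched. No sample column was left out (0 columns).

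Estimated counts were rounded. Low genes were removed with filterByExpr, TMM factors scaled the libraries, and the test was that of edgeR 4.0.16 (quasi-likelihood, R 4.3.3) on group alone, adjusted by Benjamini-Hochberg over 12815 genes or 20706 transcripts with a threshold of 0.05. Levels are TMM-normalised CPM. Per-length levels (TPM) divide transcript counts by GENCODE lengths, which covered 98.06% to 99.05% of counts, and then scale each library to the same sum. Without molecular identifiers reads are no independent molecules, so intervals cover only counting error. The functions were tested on simulated counts.

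Named were the 10 genes, Jun, in each list the genes past the threshold, filled up to 4 by smallest p, transcripts of at least 5 CPM in a group, and the 5 genes most correlated with Hspa5 (log2 CPM, prior count 2). Herpud1-206 and Ddit3-203 are additions made with their values in view. The members and lists were chosen with earlier results of these data known. Alternatives were other scalings, no filter, DESeq2 1.42.0, limma 3.58.1 (voom, and trend on the log2 of the deposited signal plus 0.5 or 2), thinning to the smallest total, a block on replicate number, and omission of 1 library at a time.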

Additional observations from a re-analysis of the deposited data

How the results depend on the processing

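Under all 16 alternatives every tested gene of the 10 kept a negative log2 fold change, and Jun was not called. The count of the 10 called lower was 4 with no low-count filter (Hspa5, Pdia4, Pdia6, Atf4), 4 with DESeq2 (Hspa5, Pdia4, Dnajb9, Herpud1), 4 with limma-trend plus 0.5 (Hspa5, Pdia4, Dnajb9, Atf4), 5 with limma-trend plus 2 (those and Pdia6), and 0 to 1 without 1 library. With limma-voom it was 1, Dnajb9 in place of Hspa5. Dnajb9 was at or next to 0 in the libraries labelled Jun knockdown and passed the low-count filter through the controls alone. Folding enzymes called lower were 0 with median of ratios, upper quartile, library totals, thinning and limma-voom, 6 with no filter and with DESeq2, 5 with either limma-trend, and 0 to 1 without 1 library. Translocon genes called lower were 0 under those 3 scalings, thinning and every left-out library (0 to 0), 4 with no filter, and 2 with DESeq2 and with either limma-trend. Degradation genes called lower were 1 with no filter, limma-voom and either limma-trend, and 2 with DESeq2. Stress response targets called lower were 1 with no filter, 2 with limma-voom and either limma-trend, 4 with DESeq2, and 0 to 1 without 1 library. DESeq2 also called 1 target and 1 sensor higher. Transcripts of the 10 called lower were 6 with no filter, in a fit of 76105 transcripts instead of 20706. The count called over all transcripts in that setting is not given here, so the 6 have no background beside them.

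Over all genes, lower and higher calls were 89 and 55 with upper quartile, 79 and 68 with library totals, 573 and 164 with no filter, 1144 and 855 with DESeq2, 315 and 127 with limma-voom, 512 and 103 with limma-trend plus 0.5, 475 and 78 with plus 2, and 31 to 95 lower and 5 to 17 higher without 1 library. Thinning gave 105 lower. Lower calls were 80.8% of all calls with TMM, 61.8% with upper quartile, 53.7% with library totals and 57.2% with DESeq2. The median of the 12815 genes moved by 0.147 with median of ratios, 0.386 with upper quartile and 0.501 with library totals. With DESeq2 it moved by 0.499, but over 33087 unfiltered genes, a different set. Leaving out the filter in edgeR moved it by 0.112. DESeq2 gave an adjusted p to 15502 of 33087 genes. The 3222-base retained-intron transcript of Hsp90b1, not called in any setting, ranged from -1.81 to 1.18 without 1 library, negative without replicate 3 of the libraries labelled Jun knockdown and without control 3 (-0.34). The cause was not tested.

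No pairing by replicate number was seen over all genes: deviations of same-numbered libraries correlated at 0.000422, 0.00804 and -0.0151. The labels name neither animals nor litters, and these correlations cannot exclude a shared origin of same-numbered libraries. With the replicate block, lower calls over all genes were 78 and higher calls 19. Called lower were 1 of the 10 genes (Hspa5, adjusted p = 0.0147), 0 folding enzymes and 0 translocon genes. Of the transcripts, 1 (the 2613-base one of Hspa5) was called lower, and the count over all transcripts with this block is not given here. The 3222-base Hsp90b1 transcript turned to -0.99.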
